A study of Rattus norvegicus with 12 samples.

Results

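Bone morphogenetic proteins (BMPs), their receptors and their antagonists were examined as 10 transcripts of the rat bronchial wall. They comprised the ligands Bmp2, Bmp3, Bmp4, Bmp6 and Bmp7, the receptors Bmpr1a and Bmpr2, the secreted antagonists Nog (noggin) and Grem1 (gremlin 1), and the membrane inhibitor Bambi. The genes were chosen by their symbol in the annotation of the array, and all 10 were found among the 14217 genes measured. Of the members, 7 had 1 probe set, while Bmp2, Bmp6 and Bmpr2 had several, and each gene is described by its probe set of highest mean signal over the 12 arrays.

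Fibrotic bronchi (3 arrays, replicates 3, 7 and 9) and non-fibrotic bronchi (3 arrays, replicates 4, 8 and 10) came from male Wistar Han rats that had inhaled the butter flavoring 2,3-pentanedione (PD) at 200 ppm, for 6 hours a day on 12 days. Control bronchi (6 arrays, replicates 1 to 6) came from male rats of the same strain that breathed filtered air, and the rats were 6 to 7 weeks old when obtained. The specimens were cut by laser from frozen sections of the right diaphragmatic lobe. Fibrotic specimens were plaques or polyps in the lumen together with the wall beneath them, and the other specimens were bronchi with their epithelium and wall. Fibrotic tissue was taken from 5 exposed rats and non-fibrotic tissue from 3 of the same rats, but the labels tie no array to a rat, and the tests between exposed groups therefore treat specimens as separate animals.

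BMPs are secreted ligands of the TGF-β superfamily. They bring together type I receptors, such as the product of Bmpr1a, and type II receptors, such as the product of Bmpr2, and the activated complex phosphorylates Smad proteins that enter the nucleus and switch on targets such as the Id genes. Noggin and gremlin 1 bind BMPs outside the cell and keep them from their receptors, and Bambi resembles a type I receptor without the kinase. In the embryonic lung BMP4 takes part in the branching of the airways, and in humans mutations of BMPR2 are a known cause of heritable pulmonary arterial hypertension.

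Values are log2 MAS5 signals, a relative measure of transcript abundance in which a difference of 1 is a 2-fold change. Signals of different probe sets cannot be set against each other, so levels were compared between groups only within a gene. A single limma model of the 3 groups was fitted to 31042 probe sets, and a gene is said to rise or fall where its Benjamini-Hochberg adjusted p was under 0.01. Bacterial transcripts taken as absent reached a log2 signal of 6.52, and values under that level cannot be told from those of absent transcripts. Some differences are therefore also given after raising every lower signal to 6.52. Controls 1 and 2 carry labels of the form used for the exposed arrays, and controls 3 to 6 another form. The poly-A transcripts added during labelling had mean log2 signals of 10.07 in the exposed arrays, 2.32 in controls 1 and 2 and 10.35 in controls 3 to 6. GAPDH probe sets at the 3′ end exceeded those at the 5′ end, a gap that grows as RNA is shortened, by 1.59 to 2.11 log2 units in fibrotic, 1.95 to 2.35 in non-fibrotic and 0.70 to 2.03 in control bronchi. The mean gap was 2.03 in the exposed arrays, 1.60 in controls 1 and 2 and 0.78 in controls 3 to 6.

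Bmp3 and Bmp4 are the members whose signals passed the test, and the stretches before their transcription starts are therefore shown. They are the 250 bases upstream of the RefSeq start on the rat build GRCr8, both on the minus strand, written 5′ to 3′ along the gene, at chr14:11041283-11041532 for Bmp3 and at chr15:22101934-22102183 for Bmp4. Capitals mark matches on either strand to GGGCGG, the GC box of Sp1 factors, to GGCGCC, a Smad-bound sequence of BMP target genes, and to CAGAC, a core Smad-binding sequence.
Bmp3: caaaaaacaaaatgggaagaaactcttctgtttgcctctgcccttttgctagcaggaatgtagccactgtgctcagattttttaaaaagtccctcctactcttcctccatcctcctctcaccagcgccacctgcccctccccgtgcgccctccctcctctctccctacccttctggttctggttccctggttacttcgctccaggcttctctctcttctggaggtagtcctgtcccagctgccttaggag
Bmp4: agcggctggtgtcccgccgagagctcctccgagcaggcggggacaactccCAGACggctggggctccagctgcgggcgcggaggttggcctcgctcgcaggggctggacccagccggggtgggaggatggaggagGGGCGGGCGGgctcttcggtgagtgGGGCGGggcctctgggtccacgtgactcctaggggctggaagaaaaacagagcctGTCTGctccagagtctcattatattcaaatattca
The window of Bmp3 held none of the 3 motifs and had a GC content of 53.6%. That of Bmp4 held GGGCGG 3 times, with a pair of overlapping copies, and CAGAC 2 times, once on each strand, and its GC content was 66.4%, where the median of all rat promoter windows was 51.2%. Of 33469 windows of this length, 30.5% held GGGCGG, 8.69% held GGCGCC and 42.9% held CAGAC. RefSeq windows were at hand for 8 of the 10 members, of which 6, 3 and 2 held these motifs in that order. The letters describe the windows only, and binding was not measured.

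Among the ligands, Bmp3 and Bmp4 were lower in fibrotic bronchi than in both other groups, and both were higher in every non-fibrotic array than in every control array. Bmp3, an atypical BMP known in mice for restraining bone formation, had log2 signals of 8.14, 10.78 and 8.55 in the fibrotic arrays 3, 7 and 9. It had 12.39, 13.11 and 11.94 in the non-fibrotic arrays 4, 8 and 10. In control bronchi the lowest signal was 10.51, the median 11.07 and the highest 11.72. Fibrotic arrays 3 and 9 lay below all others and fibrotic array 7 lay within the control range, while non-fibrotic arrays overlapped with neither group. The means were 9.16 ± 1.42 in fibrotic (SD, n = 3), 12.48 ± 0.59 in non-fibrotic (n = 3) and 11.05 ± 0.43 in control bronchi (n = 6). Bmp3 fell in fibrotic bronchi with a log2 fold change of -1.89 against control (standard error 0.45, 95% interval -2.85 to -0.93, adjusted p = 0.00838 from limma), a 3.71-fold lower signal. Against non-fibrotic bronchi it fell with -3.32 (standard error 0.52, interval -4.43 to -2.21, adjusted p = 0.000885), 10.0-fold on the signal scale. The difference of non-fibrotic from control bronchi was 1.43 (interval 0.47 to 2.39, adjusted p = 0.0676). The study itself lists Bmp3 among the genes it found changed in fibrotic airways of these animals, so its direction is not independent evidence. Fewer cells of a type and less RNA per cell cannot be told apart in these bulk specimens.

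Bmp4, a ligand of the developing airways, had log2 signals of 9.12, 10.47 and 8.21 in fibrotic arrays 3, 7 and 9 and of 11.42, 11.61 and 11.69 in non-fibrotic arrays 4, 8 and 10. Its control signals had a lowest value of 10.39, a median of 10.65 and a highest value of 11.29. As for Bmp3, fibrotic array 7 was the highest of its group and lay within the control range, and every non-fibrotic array lay above every control. The means were 9.27 ± 1.14 in fibrotic, 11.57 ± 0.14 in non-fibrotic and 10.76 ± 0.32 in control bronchi (SD, n = 3, 3 and 6). Bmp4 fell in fibrotic bronchi by 1.49 on the log2 scale against control (standard error 0.36, interval -2.25 to -0.73, adjusted p = 0.00879) and by 2.30 against non-fibrotic bronchi (standard error 0.41, interval -3.18 to -1.42, adjusted p = 0.00253), which are 2.80-fold and 4.93-fold lower signals. Non-fibrotic bronchi differed from control by 0.82 (interval 0.06 to 1.58, adjusted p = 0.161).

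**Figure D1:**
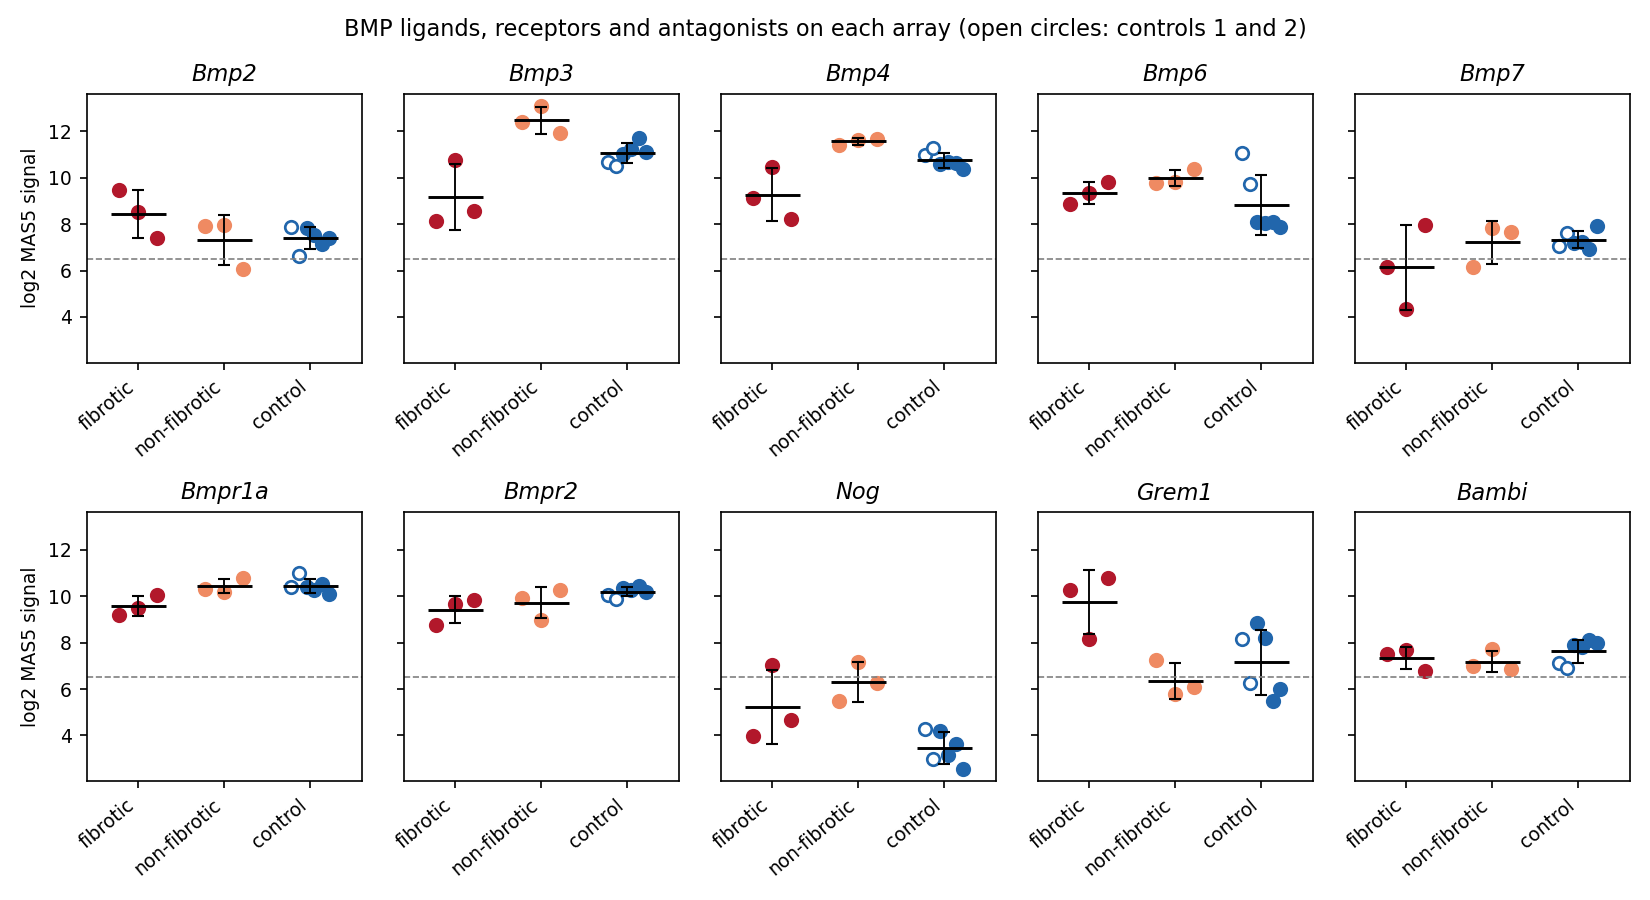
Log2 MAS5 signal (vertical) of each of the 10 genes on every array, in fibrotic (n = 3), non-fibrotic (n = 3) and control bronchi (n = 6), with open circles for controls 1 and 2, bars for the mean and SD of each group and a dashed line at 6.52, the level of absent transcripts. Bmp3 and Bmp4 are lowest in fibrotic arrays 3 and 9 and highest in the 3 non-fibrotic arrays, and Grem1 averages 9.74 in fibrotic, 6.37 in non-fibrotic and 7.16 in control bronchi.

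The falls against control were less secure than those against non-fibrotic bronchi. Without fibrotic array 7 the log2 fold change against control was -2.70 for Bmp3 (adjusted p = 9.7e-05) and -2.09 for Bmp4 (adjusted p = 0.000246). Without fibrotic array 9 it was -1.59 for Bmp3 (adjusted p = 0.0561) and -0.96 for Bmp4 (adjusted p = 0.0649), and without fibrotic array 3 it was -1.38 (adjusted p = 0.0719) and -1.41 (adjusted p = 0.0441), so both calls rest on these arrays. Both calls were also lost without non-fibrotic array 4 or 10 and without any one of controls 3 to 6, at adjusted p-values of 0.0107 to 0.0187, and that of Bmp4 alone without non-fibrotic array 8 or control 1 or 2, at 0.0106 to 0.0164. Against non-fibrotic bronchi the call of Bmp3 held whichever array was left out (adjusted p up to 0.00763), and that of Bmp4 was lost without fibrotic array 3 (0.0134) and without non-fibrotic array 8 (0.0123) or 10 (0.0146). Every one of these fits had the same sign. The model takes 1 spread per gene for the 3 groups, while both genes varied most in fibrotic bronchi.

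Both genes were compared with each set of control arrays. Bmp3 averaged 10.59 in controls 1 and 2 and 11.28 in controls 3 to 6, and the fibrotic mean differed by -1.43 (adjusted p = 0.262) and -2.12 (adjusted p = 0.0082) from these sets. Bmp4 averaged 11.13 and 10.57 in the same sets, with fibrotic differences of -1.86 (adjusted p = 0.061) and -1.30 (adjusted p = 0.0269). The sign was thus the same within both sets of controls, and the size was larger against controls 3 to 6 for Bmp3 and against controls 1 and 2 for Bmp4.

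Bmp2, a ligand best known for inducing bone, had log2 signals of 9.45, 8.52 and 7.38 in fibrotic arrays 3, 7 and 9 and of 7.93, 7.95 and 6.06 in non-fibrotic arrays 4, 8 and 10. Its control signals had a lowest value of 6.63, a median of 7.47 and a highest value of 7.88. Fibrotic arrays 3 and 7 lay above all controls and array 9 among them. The difference of fibrotic from control bronchi was 1.05 (interval -0.06 to 2.15, adjusted p = 0.18), that of non-fibrotic from control bronchi -0.09 (interval -1.20 to 1.01, adjusted p = 0.931) and that of fibrotic from non-fibrotic bronchi 1.14 (interval -0.14 to 2.41, adjusted p = 0.275). On the second probe set of Bmp2 all 3 fibrotic arrays, with 7.93, 8.84 and 7.38, lay above every control array, the highest of which had 7.15, and the difference was 1.56 (adjusted p = 0.224). Neither probe set passed the test in any comparison.

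Bmp6, which in the liver controls hepcidin and so iron uptake, parted the controls by their label form. The fibrotic arrays had 8.87, 9.35 and 9.81, and the non-fibrotic arrays had 9.78, 9.83 and 10.40. Controls 1 and 2 had 11.06 and 9.72, while controls 3 to 6 lay between 7.88 and 8.11. Every exposed array lay above controls 3 to 6, while control 1 lay above all exposed arrays and control 2 among them. The pooled difference was 0.52 for fibrotic against control bronchi (interval -0.69 to 1.74, adjusted p = 0.57) and 1.18 for non-fibrotic against control bronchi (interval -0.04 to 2.40, adjusted p = 0.202). Fibrotic bronchi differed by -1.04 from controls 1 and 2 (adjusted p = 0.267) and by 1.31 from controls 3 to 6 (adjusted p = 0.00495). Non-fibrotic bronchi differed by -0.39 from controls 1 and 2 (adjusted p = 0.774) and by 1.97 from controls 3 to 6 (adjusted p = 0.00171). The direction turned with the set of controls for Bmp6, and the part of the label form in this was not tested. Fibrotic and non-fibrotic arrays, which share a label form, differed by -0.66 (interval -2.06 to 0.75, adjusted p = 0.609). The second probe set of Bmp6 had 5.20, 5.12 and 7.44 in fibrotic and 8.39, 9.11 and 7.03 in non-fibrotic bronchi, a difference of -2.25 (adjusted p = 0.0623), or -1.35 after raising signals to 6.52. Its remaining 2 probe sets lay under that level on every control array.

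**Figure D2:**
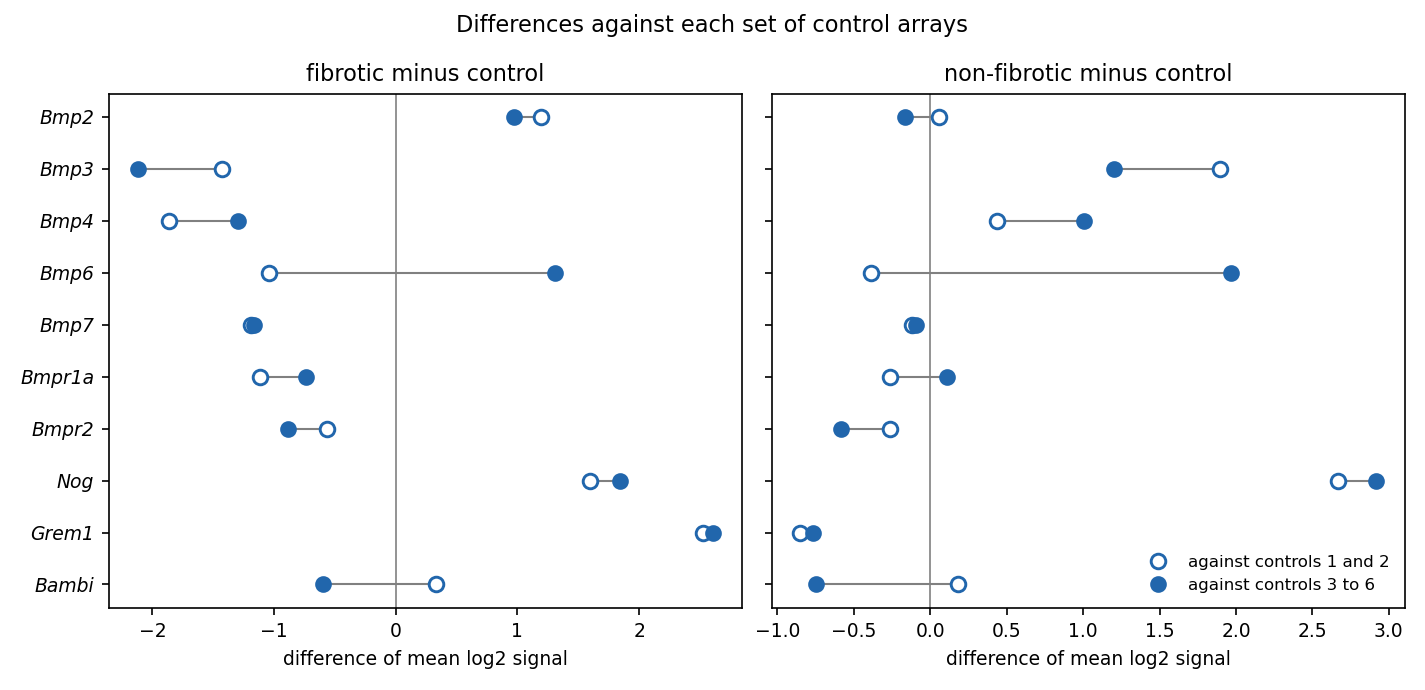
Difference of mean log2 signal (horizontal) of fibrotic (left) and non-fibrotic bronchi (right) from controls 1 and 2 (open circles) and from controls 3 to 6 (filled circles) for each of the 10 genes. For Bmp6 the circles lie on opposite sides of 0, at -1.04 and 1.31 for fibrotic bronchi, and for Bmp3 and Bmp4 they lie on the same side.

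Bmp7, a ligand known from kidney development, was near the level of absent transcripts, with 6.14, 4.32 and 7.98 in fibrotic arrays, 6.15, 7.85 and 7.65 in non-fibrotic arrays and 7.07, 7.60, 7.17, 7.22, 6.93 and 7.91 in controls 1 to 6. The fibrotic arrays spanned more than the controls, with 2 of them under 6.52 and 1 above every control. The difference of fibrotic from control bronchi was -1.17 (interval -2.53 to 0.20, adjusted p = 0.227), or -0.31 after raising signals to 6.52. The other differences were -0.10 for non-fibrotic against control bronchi (adjusted p = 0.938) and -1.07 for fibrotic against non-fibrotic bronchi (adjusted p = 0.428).

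Both receptors had lower signals in every fibrotic array than in any control array, without passing the test. Bmpr1a, the type I receptor for BMP2 and BMP4, had log2 signals of 9.21, 9.49 and 10.04 in fibrotic arrays and of 10.31, 10.20 and 10.77 in non-fibrotic arrays. Its controls ranged from 10.08 over a median of 10.40 to 10.99. The highest fibrotic array lay just under the lowest control, and the non-fibrotic arrays lay among the controls. Bmpr1a differed by -0.86 between fibrotic and control bronchi (interval -1.40 to -0.33, adjusted p = 0.0266) and by -0.85 between fibrotic and non-fibrotic bronchi (interval -1.47 to -0.23, adjusted p = 0.0833). Between non-fibrotic and control bronchi the difference was -0.01, with an interval of -0.55 to 0.52 (adjusted p = 0.977).

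Bmpr2, the type II receptor of BMPs, had 8.77, 9.66 and 9.86 in fibrotic arrays and 9.93, 8.99 and 10.26 in non-fibrotic arrays, and its controls had a lowest value of 9.90, a median of 10.23 and a highest value of 10.44. Non-fibrotic array 8 lay under every control, as the fibrotic arrays did. The differences were -0.78 for fibrotic against control bronchi (interval -1.42 to -0.14, adjusted p = 0.087), -0.48 for non-fibrotic against control bronchi (adjusted p = 0.324) and -0.30 for fibrotic against non-fibrotic bronchi (adjusted p = 0.661). The second probe set of Bmpr2 did not repeat the gap, since fibrotic array 7 with 9.65 lay among its controls (9.07 to 9.75), and its difference between fibrotic and control bronchi was -0.32 (adjusted p = 0.482). Its difference between non-fibrotic and control bronchi was 0.32, of the opposite sign.

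Grem1 was higher in every fibrotic array than in any non-fibrotic array, without passing the test. Gremlin 1 binds BMP2 and BMP4 and is best known from limb and kidney development. Its log2 signals were 10.27, 8.18 and 10.78 in fibrotic arrays 3, 7 and 9 and 7.25, 5.77 and 6.08 in non-fibrotic arrays 4, 8 and 10. In controls the lowest signal was 5.49, the median 7.22 and the highest 8.84. Fibrotic arrays 3 and 9 lay above every other array and array 7 within the control range, so that fibrotic and control arrays overlapped while fibrotic and non-fibrotic arrays did not. The difference was 2.58 for fibrotic against control bronchi (standard error 0.75, interval 0.99 to 4.18, adjusted p = 0.0256) and 3.38 for fibrotic against non-fibrotic bronchi (standard error 0.87, interval 1.54 to 5.22, adjusted p = 0.0224), neither under the threshold. After raising signals to 6.52 these were 2.28 and 2.98. Non-fibrotic bronchi differed from control by -0.80 (interval -2.39 to 0.80, adjusted p = 0.521), with 2 of 3 non-fibrotic and 3 of 6 control arrays under 6.52. Without fibrotic array 7, the one nearest to the controls, the difference between fibrotic and control bronchi was 3.37 (adjusted p = 0.013). This was the largest difference and the smallest adjusted p of the alternative fits. They ran from 2.06 to 3.37, with adjusted p-values up to 0.138, and only a threshold of 0.05 gave a call.

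Nog was close to or under the level of absent transcripts throughout. The fibrotic arrays had 3.96, 7.03 and 4.69, the non-fibrotic arrays 5.47, 7.18 and 6.25, and the controls a lowest value of 2.56, a median of 3.40 and a highest value of 4.29. All 6 controls lay under 6.52, as did 2 of the 3 arrays of each exposed group, so no fold change can be given. The fitted test of non-fibrotic against control bronchi had an adjusted p of 0.0421, and after raising signals to 6.52 the difference was 0.22 (adjusted p = 0.439). The study lists Nog among the genes it found changed in non-fibrotic airways, so its direction is not independent evidence either. Bambi had 7.52, 7.70 and 6.80 in fibrotic arrays, 6.98, 7.72 and 6.85 in non-fibrotic arrays and a lowest value of 6.89, a median of 7.84 and a highest value of 8.10 in controls. The 3 groups overlapped. The differences of Bambi were -0.29 for fibrotic against control bronchi (interval -1.16 to 0.59, adjusted p = 0.678), -0.44 for non-fibrotic against control bronchi (adjusted p = 0.518) and 0.15 for fibrotic against non-fibrotic bronchi (interval -0.86 to 1.16, adjusted p = 0.889). Controls 1 and 2 averaged 7.01 and controls 3 to 6 averaged 7.94, and against the first set alone the fibrotic and non-fibrotic differences of Bambi were 0.33 and 0.18.

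Over the 10 members, 2 fell and none rose in fibrotic against control bronchi, where 6.40% of all probe sets fell, 2.99% rose and 9.39% did either. At an unadjusted p under 0.05 there were 6 members. The share of all probe sets at that level was not counted, so counts at an unadjusted p have no share beside them here or below. An adjusted p under 0.05 was found for 4 members and for 17.9% of all probe sets. In non-fibrotic against control bronchi none of the 10 passed the limma test, where 0.522% of all probe sets did (0.164% higher and 0.358% lower), with 3 members at an unadjusted p under 0.05. Nog alone of the 10 had an adjusted p under 0.05 there, beside 5.83% of all probe sets. Between fibrotic and non-fibrotic bronchi 2 fell and none rose, where 2.75% of all probe sets fell, 1.07% rose and 3.82% did either. Adding Grem1, 3 members had an adjusted p under 0.05 in that comparison, beside 9.57% of all probe sets. The median log2 difference of the members was -0.53 in fibrotic against control bronchi, beside 0.10 over all probe sets. It was -0.05 in non-fibrotic against control bronchi, beside 0.09, and -0.75 in fibrotic against non-fibrotic bronchi, beside -0.09. After raising signals to 6.52 the medians of the members were -0.30, 0.040 and -0.32, so that of non-fibrotic against control bronchi changed sign. Fibrotic arrays lay below all controls for Bmpr1a and Bmpr2, as for 11.3% of all probe sets, and above them for no member, where 12.3% did. Non-fibrotic arrays lay above all controls for Bmp3, Bmp4 and Nog, where 9.23% of all probe sets did so, and below them for none, where 5.42% did. For Nog all 6 controls and 2 of 3 non-fibrotic arrays lay under 6.52, where values cannot be told from absent transcripts. Its place in this count is therefore not interpreted. Fibrotic arrays lay below all non-fibrotic arrays for Bmp3, Bmp4 and Bmpr1a, where 12.2% of all probe sets did, and above them for Grem1, where 10.9% did. The first and second comparisons share their controls, and the last shares an exposed group with each.

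**Figure D3:**
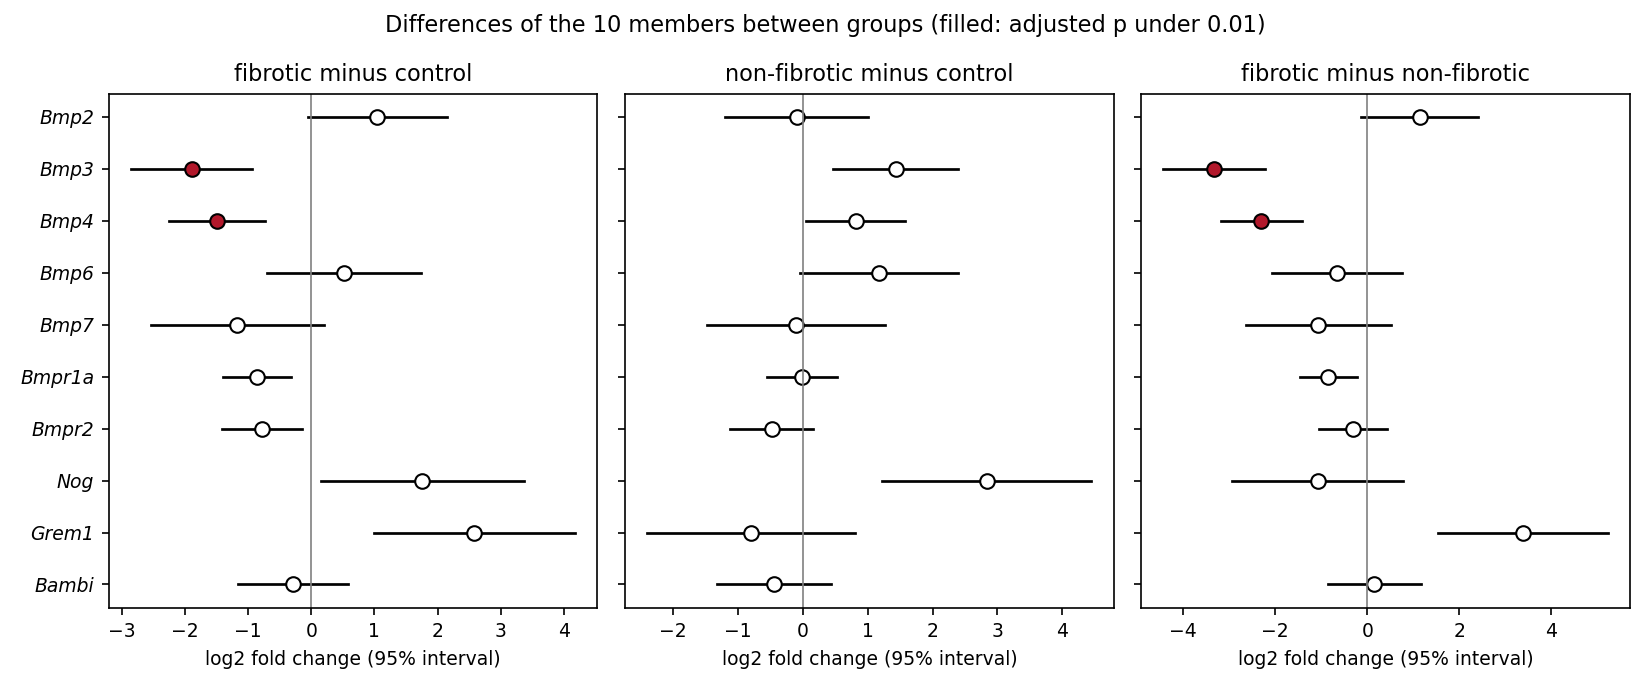
Log2 fold change (horizontal) of each of the 10 genes with its 95% interval in fibrotic against control (left), non-fibrotic against control (middle) and fibrotic against non-fibrotic bronchi (right), with filled circles where the adjusted p was under 0.01. Bmp3 and Bmp4 are filled on the left, at -1.89 and -1.49, and on the right, at -3.32 and -2.30, and no gene is filled in the middle.

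Of 75 other genes of the pathway, 58 were measured, and in fibrotic against control bronchi 5 of them rose and 9 fell, beside the 2.99% and 6.40% of all probe sets given above. Their median difference was -0.05, or 0.0 after raising signals to 6.52. With controls 1 and 2 alone, 2 of the 14 calls were left, those of Sostdc1 and Id4. The list of secreted antagonists and modulators, which includes the membrane protein Crim1, held 7 of these 14 calls. Of its 13 measured genes 4 were higher and 3 lower. The 13 genes had a median difference of 1.31, which was 0.0054 after raising signals to 6.52. Chrdl2, a chordin-like binder of BMPs, had 9.84, 9.45 and 9.68 in fibrotic arrays and lay under 6.52 in all 6 controls, so that it was at least 8.82-fold higher in fibrotic bronchi (adjusted p = 5.22e-05). Fst, or follistatin, which binds activins and some BMPs, rose by 5.83 log2 units in fibrotic bronchi (adjusted p = 0.000766), or 4.50 after raising signals to 6.52. Fstl1, a follistatin-like glycoprotein, rose with 2.11 (adjusted p = 0.000368). Bmper, which binds BMPs outside the cell, rose in fibrotic bronchi (adjusted p = 0.00877), with a difference of 0.69 after raising signals to 6.52. All 6 controls and, with 6.42, fibrotic array 3 lay under that level for Bmper. The call of Bmper was lost without any one of the fibrotic arrays (adjusted p up to 0.0467), without non-fibrotic array 4 or 10 and without any one of controls 2 to 6 (up to 0.0186). It was also lost with a random block for the form of the label (adjusted p = 0.0251), with array weights (adjusted p = 0.0118), without letting the variance follow the signal (the intensity trend) and after raising signals to 6.52 (adjusted p = 0.0951), and 9 of 24 alternatives kept it.

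Sostdc1, an antagonist of BMP and Wnt signals, moved the other way. It had 6.57, 6.63 and 7.60 in fibrotic arrays and 10.00, 10.50 and 10.46 in non-fibrotic arrays, with a lowest value of 9.58, a median of 10.36 and a highest value of 10.77 in controls. The fibrotic arrays lay below all the others by a wide gap, and the non-fibrotic arrays lay among the controls. Sostdc1 fell in fibrotic bronchi with -3.27 against control (standard error 0.33, adjusted p = 4.99e-06) and with -3.39 against non-fibrotic bronchi (standard error 0.38, adjusted p = 5.52e-05). Nbl1, an antagonist of the DAN family to which gremlin 1 belongs, fell with -2.56 against control (adjusted p = 0.00461), and Crim1, a membrane protein that binds BMPs, fell with -1.66 (adjusted p = 0.00139). For Nbl1 the fibrotic difference was -0.96 against controls 1 and 2 (adjusted p = 0.304) and -3.37 against controls 3 to 6 (adjusted p = 4.89e-06). The call of Nbl1 was lost without fibrotic array 3 (0.0275) or 7 (0.0304) and without control 3, 4 or 6 (0.0110 to 0.0116), and that of Crim1 without fibrotic array 9 (adjusted p = 0.0117). That of Nbl1 was also lost with a random block for label form (-2.11, adjusted p = 0.0145), without the intensity trend and after raising signals to 6.52 (adjusted p = 0.0286).

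Bmp5, the closest relative of Bmp6 and Bmp7 among the other ligands, had 6.61, 8.04 and 7.85 in fibrotic arrays and 9.80, 10.44 and 10.52 in non-fibrotic arrays, and its controls had a lowest value of 8.76, a median of 10.05 and a highest value of 10.44. All fibrotic arrays lay below all others. Bmp5 fell in fibrotic bronchi with -2.39 against control (adjusted p = 0.000394) and with -2.75 against non-fibrotic bronchi (adjusted p = 0.00103). Gdf15, a stress-induced member of the superfamily that signals through a receptor of its own, fell with -3.01 (adjusted p = 0.00194), or -1.64 after raising signals to 6.52, where the call was lost (adjusted p = 0.0167). The call of Gdf15 was lost without fibrotic array 3 (adjusted p = 0.0176) or 9 (adjusted p = 0.0135). These were the calls among 7 ligands measured. None of 10 other receptors and co-receptors passed the limma test, with 5 at an unadjusted p under 0.05. Of 5 proteases that process ligands or their antagonists, Pcsk6, a proprotein convertase, lay under 6.52 in all 3 fibrotic arrays and was at least 4.09-fold lower than in controls (adjusted p = 0.00101). After raising signals to 6.52 its adjusted p was 0.0253, and the call was lost.

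Of 11 Smads and regulators, Zeb2, a Smad-binding repressor, rose in fibrotic bronchi with 2.43 (adjusted p = 0.000199) and Tob1, which restrains BMP-Smad signals in mouse bone cells, fell with -1.90 (adjusted p = 0.000759), while the Smads themselves had no call. Of 12 measured target genes, Id4 and Hey1 fell. Id4, a target of BMP-Smad signals that inhibits basic helix-loop-helix factors, had 8.48, 9.49 and 8.92 in fibrotic arrays and 11.16, 12.38 and 12.31 in non-fibrotic arrays, with a lowest value of 10.66, a median of 11.23 and a highest value of 12.03 in controls. Its fibrotic arrays lay below all others. Id4 fell with -2.36 against control (adjusted p = 0.000126) and with -2.99 against non-fibrotic bronchi (adjusted p = 0.000167). Hey1, a repressor downstream of BMP and Notch, fell with -2.30 against control (adjusted p = 0.00689). Its call was lost without fibrotic array 3 (0.0376) or 7 (0.0495) and without any one of controls 1, 2, 3, 5 and 6 (0.0109 to 0.0176). It was also lost with a random block for label form (-2.34, adjusted p = 0.0122), with controls 3 to 6 alone (adjusted p = 0.0199), without the intensity trend and after raising signals to 6.52 (adjusted p = 0.0291). Id1, the most widely used readout of BMP-Smad signals, had differences of -0.92 in fibrotic (adjusted p = 0.104) and -1.06 in non-fibrotic bronchi (adjusted p = 0.0936) against control, and Id3 had 1.51 (adjusted p = 0.0523) and 1.26 (adjusted p = 0.134).

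In non-fibrotic against control bronchi none of these 58 genes passed the limma test, with 4 at an adjusted p under 0.05 and 19 at an unadjusted p under 0.05, and their median difference was 0.16, or 0.0050 after raising signals to 6.52. Between fibrotic and non-fibrotic bronchi 3 fell, namely Bmp5, Sostdc1 and Id4, and none rose, with a median of -0.18, or -0.021 after raising signals to 6.52. Chrdl2 had 8.62, 6.35 and 8.18 in non-fibrotic arrays 4, 8 and 10, while all controls lay under 6.52. Array 8 lay under that level too and overlapped with the controls. The difference of Chrdl2 between non-fibrotic and control bronchi was 1.66 (adjusted p = 0.0465), which did not pass the test, or 1.26 after raising signals to 6.52. Hey1 differed from control by -2.11 in non-fibrotic bronchi (adjusted p = 0.0333), about as far as in fibrotic bronchi, against which its difference was -0.19 (interval -1.49 to 1.12, adjusted p = 0.897).

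**Figure D4:**
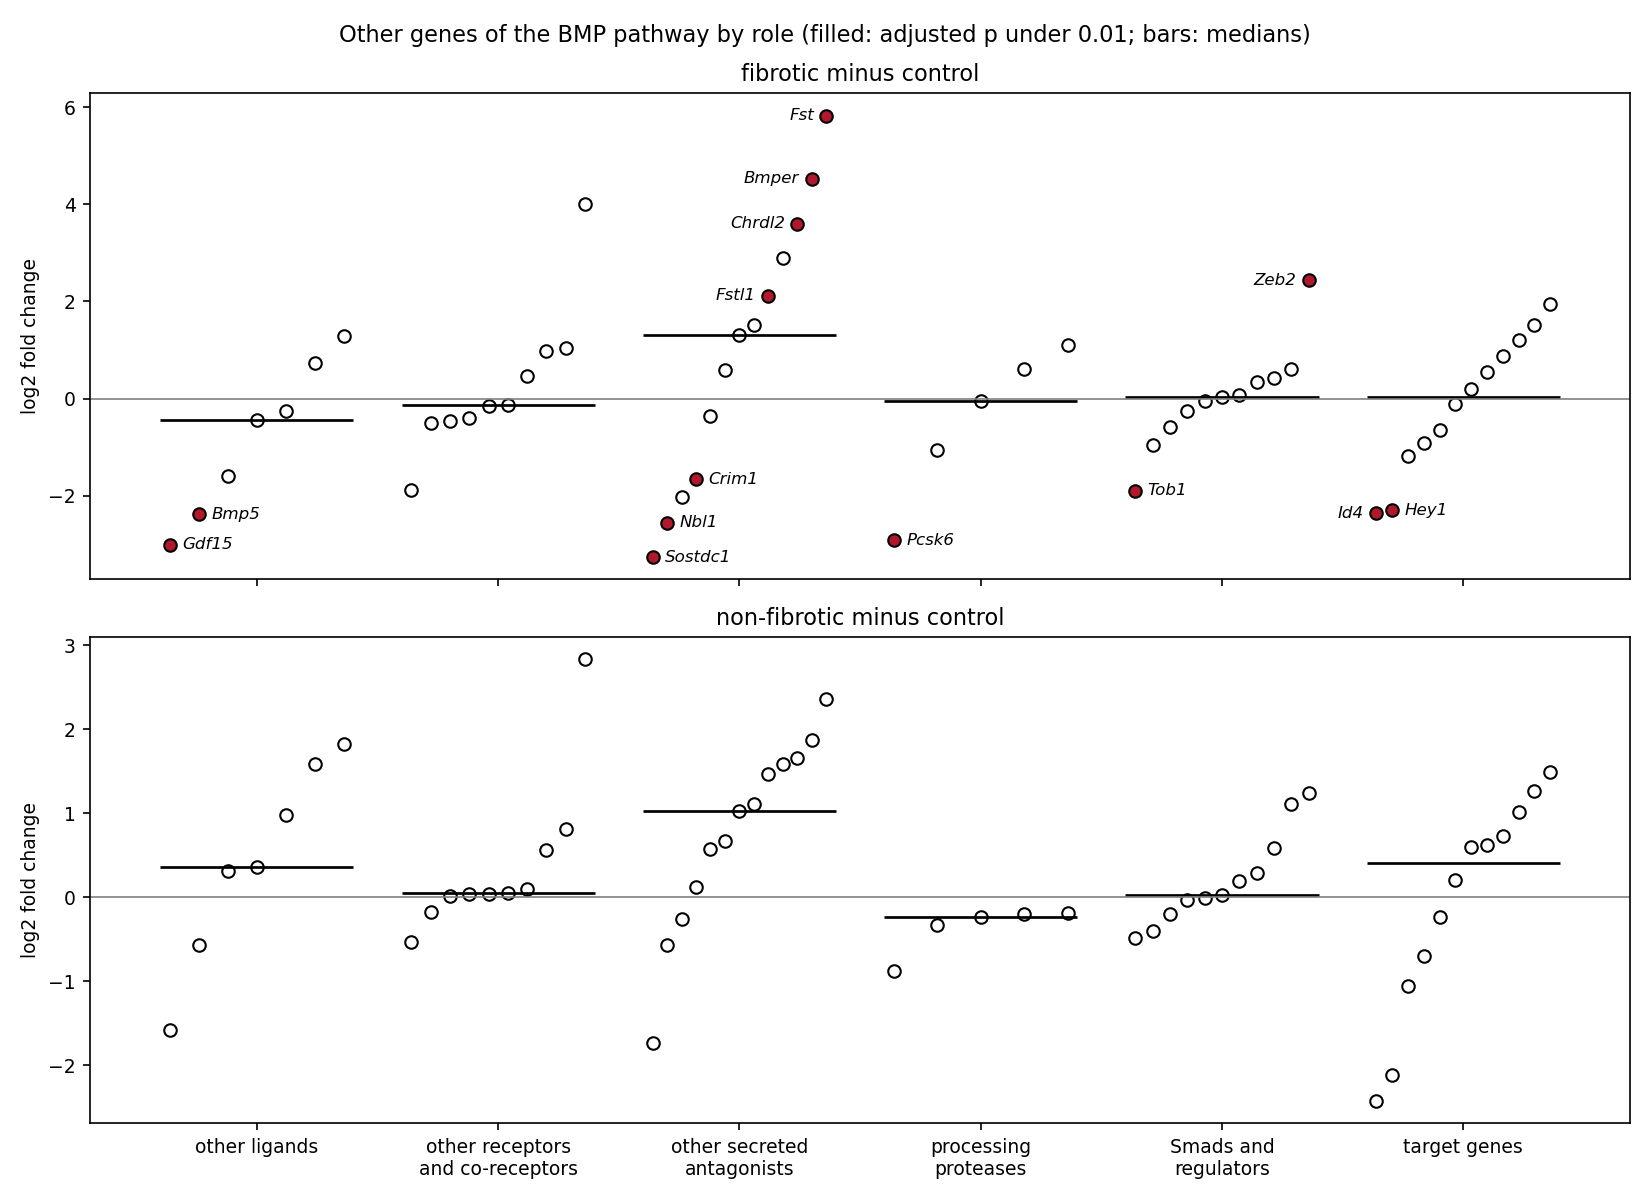
Log2 fold change (vertical) of the 58 other genes of the pathway, by role, in fibrotic (top) and non-fibrotic bronchi (bottom) against control as fitted, also where a group lay under 6.52, with bars at the median of each role and filled points where the adjusted p was under 0.01. In the top panel 4 secreted antagonists and modulators are filled above 0 and 3 below, with Crim1, a membrane protein, among the latter. Bmp5 and Gdf15 are filled among the ligands, and no point is filled in the bottom panel.

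Markers of cell types moved with the same groups. Of 10 ciliated cell markers 7 were measured, and all 7 fell in fibrotic bronchi against control and against non-fibrotic bronchi. The log2 of their summed signal was 11.36 to 12.13 in fibrotic, 15.20 to 15.73 in non-fibrotic and 15.30 to 15.89 in control bronchi, and none of the 7 lay under 6.52 in all arrays of a group. Each such sum adds unlogged signals, so it leans to the probe sets of highest signal and is no measure of cell number. Foxj1, the master regulator of motile cilia, had means of 7.64 in fibrotic, 12.39 in non-fibrotic and 12.35 in control bronchi. None of the 7 ciliated cell markers passed the limma test between non-fibrotic and control bronchi, with 3 positive and 4 negative differences. The largest of these was that of Dnai1, at -2.14 (adjusted p = 0.0164), with every non-fibrotic array below every control. Of 8 club cell markers 6 were measured, and all 6 fell against control, with summed signals of 12.52 to 14.09 in fibrotic, 15.62 to 16.34 in non-fibrotic and 15.70 to 16.67 in control bronchi. Scgb3a1, a secretoglobin, was the 1 club cell marker under 6.52 in all fibrotic arrays. In non-fibrotic bronchi 1 of the 6 club cell markers fell against control and 4 had an unadjusted p under 0.05. The one that fell was Scgb3a1, with -6.73 (adjusted p = 0.00161), or -6.08 after raising signals to 6.52, since 2 of 3 non-fibrotic arrays lay under that level.

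The 8 fibroblast markers summed to 15.99 to 16.55 in fibrotic, 15.13 to 15.66 in non-fibrotic and 14.91 to 15.65 in control bronchi, and 4 of them rose in fibrotic against control bronchi, while 1, Fbln1 (fibulin 1), fell in non-fibrotic against control bronchi (-1.46, adjusted p = 0.00606). Of 6 measured macrophage markers 4 rose in fibrotic against control bronchi, with sums of 14.59 to 15.31 in fibrotic, 14.29 to 14.63 in non-fibrotic and 13.41 to 14.17 in control bronchi. Non-fibrotic sums all lay above those of the controls, but the single markers did not share a direction. The macrophage sum was mostly Lyz2, which averaged 13.95 in controls 1 and 2 and 13.40 in controls 3 to 6. Non-fibrotic bronchi lay 0.44 and 0.99 above these sets for Lyz2. Between these groups 3 macrophage markers had a positive and 3 a negative difference, and none passed the limma test. The 7 alveolar markers measured summed to 12.74 to 15.58 in fibrotic, 15.73 to 16.09 in non-fibrotic and 14.72 to 15.44 in control bronchi. The sum of every non-fibrotic array lay above that of every control, but the markers differed among themselves. None of the 7 passed the limma test between these groups, with 5 at an unadjusted p under 0.05, and 6 had a positive difference. Aqp5, a water channel of type I cells, went the other way, with a difference of -1.47 (adjusted p = 0.0476) and every non-fibrotic array below every control. Fibrotic array 7, with the highest Bmp3 and Bmp4 of its group and the lowest Grem1, had the highest club cell sum (14.09) and the highest alveolar sum (15.58) of the fibrotic arrays, but not the highest ciliated sum, which was 12.02 in array 7 and 12.13 in array 9. The club cell marker Scgb1a1 alone had 13.70 in array 7 and made up most of that club cell sum. The part of these cell types in the values of the BMP genes was not tested. Markers of smooth muscle, endothelial, basal cells and lymphocytes held no call between fibrotic and control bronchi by limma, with 1, 2, 2 and 2 genes at an unadjusted p under 0.05.

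**Figure D5:**
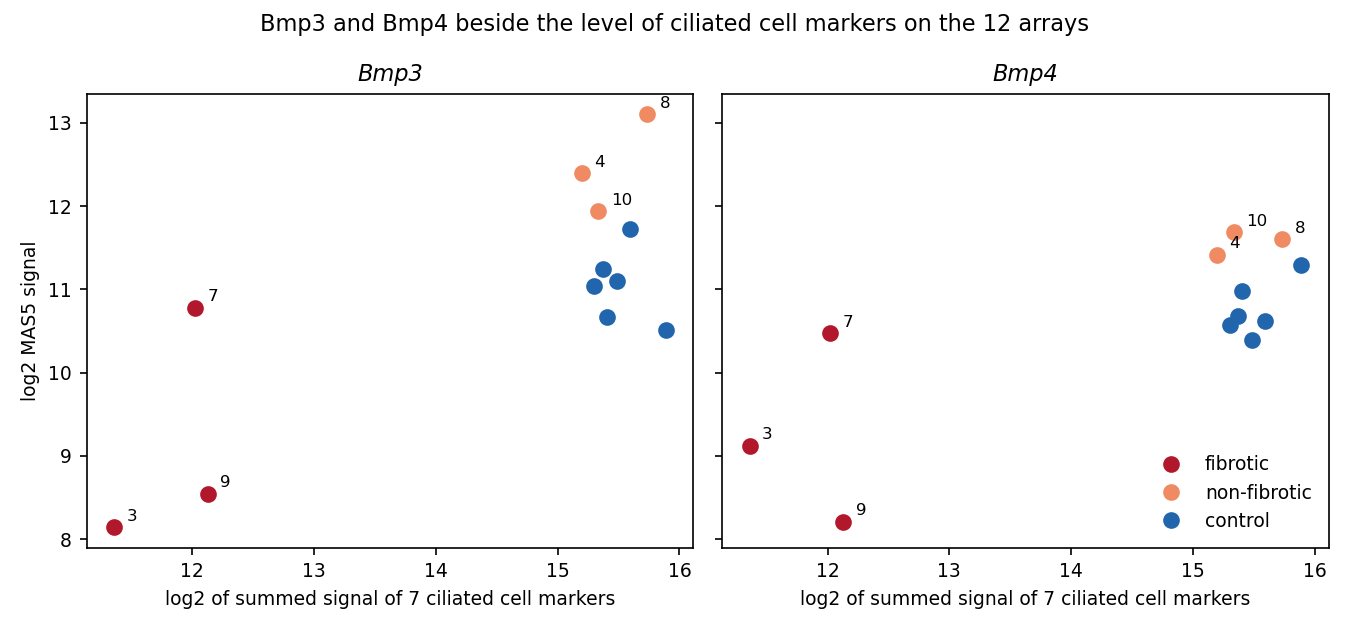
Log2 MAS5 signal of Bmp3 (left) and Bmp4 (right) on each array (vertical) against the log2 of the summed signal of 7 ciliated cell markers (horizontal), with fibrotic and non-fibrotic arrays numbered by replicate. The 3 fibrotic arrays lie at 11.36 to 12.13 on the horizontal axis and the other 9 at 15.20 to 15.89, and among those 9 the non-fibrotic arrays have the highest Bmp3 and Bmp4.

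Bmp3 and Bmp4 followed each other over the 12 arrays, with a Pearson correlation of 0.871. Of 14216 other genes, those whose signals were most like those of Bmp3 were Lrrc42 (0.969), Ackr3 (0.964) and Tspan2 (0.951), and those most like Bmp4 were Limch1 (0.965), Scgb1a1 (0.963), the main secretory protein of club cells, and Larp4b (0.945). These correlations describe 12 arrays of 3 groups that differ from each other, and they share the group differences reported above. Scgb1a1 had means of 12.86 in fibrotic, 15.11 in non-fibrotic and 14.45 in control bronchi, the same order as Bmp4.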

How the data were processed

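RNA of laser-captured bronchi of 12 specimens (3 fibrotic, 3 non-fibrotic and 6 control), 20 ng each, was amplified and hybridized to Affymetrix rat 3′ expression arrays, as their probe sets show, although the series' design text names another rat array. The intensity values are linear MAS5 signals, which the authors made with Command Console 1.1 and deposited as 1 value per probe set and array. Each array has a mean of 500.1 to 500.2 after trimming 2% at each end. The error weights of Rosetta Resolver 7.2, used by the authors in their tests, are not in these values.

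The table holds 31099 probe sets, of which 57 Affymetrix controls were left out. The annotation gives 1 symbol for 20826 of the others, several for 436 and none for 9780, and only probe sets with 1 symbol were named. Signals were taken to log2 with no pseudocount, filter or further scaling. A model of the 3 groups was fitted with limma 3.58.1 (lmFit, eBayes with intensity trend; statmod 1.5.0) in R 4.3.3, and p-values were adjusted by Benjamini-Hochberg over 31042 probe sets. The p-values and intervals rest on the spread between specimens within groups, taken as 1 value per probe set for all 3 groups. Spreads that differ between groups were not modelled. For Bmp3 and Bmp4 the SD was 1.42 and 1.14 in fibrotic but 0.43 and 0.32 in control bronchi. The number of arrays limits the precision. The level of absent transcripts is the highest of 84 signals of bacterial probe sets. These were the Trpn probe sets on all arrays and the poly-A probe sets on controls 1 and 2. The poly-A transcripts were taken as absent there, with a mean log2 signal of 2.32. Where a group lay wholly under it and the other wholly above, the fold was computed against that level and written with "at least". The limma step was tested on simulated data.

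All 10 members are named. Of each other list, called genes and up to 4 genes with the smallest p in either comparison with control may be named, and for each called member the 3 genes of highest correlation. The members and lists were chosen with earlier results of these data known. Promoter windows and their coordinates are those of RefSeq on GRCr8, and no coordinates from the array were used. Alternatives changed the threshold (0.05, or the methods' rule of a fold over 2 and an unadjusted p under 0.001), the variance model, normalization, a pseudocount of 16, a filter dropping 40% of probe sets, the arrays and controls in the fit, a random block for label form and the probe set, and left out each array in turn. A fit with lower signals raised to the level of absent transcripts was chosen after the data had been seen. Plots were made in matplotlib 3.10.9.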

Additional observations from a re-analysis of the deposited data

Results flagged for a closer look

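In 5 genes the change of fibrotic bronchi from control differed from that of non-fibrotic bronchi from the same controls, tested as the difference between the exposed groups with limma. That difference was -3.32 on the log2 scale for Bmp3 (adjusted p = 0.000885), where fibrotic bronchi fell by 1.89 and non-fibrotic bronchi lay 1.43 above control. For Bmp4 it was -2.30 (adjusted p = 0.00253), where fibrotic bronchi fell by 1.49 and non-fibrotic bronchi lay 0.82 above control. Bmp5 had a difference of -2.75 (adjusted p = 0.00103), Sostdc1 one of -3.39 (adjusted p = 5.52e-05) and Id4 one of -2.99 (adjusted p = 0.000167). In these 3 genes the non-fibrotic differences from control, 0.36, 0.12 and 0.63, were smaller than the fibrotic falls.

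Single control arrays stood apart from the other 5 in 3 of 24 genes examined. The rule was a gap to the next control of more than 0.625 of the range of the controls. Part of the 24 genes were chosen by their calls in these data, and all share the same controls. No chance rate is therefore set beside the count. Control 1 had a log2 signal of 8.76 for Bmp5, the lowest of the controls, and of 12.49 for Fstl1, the highest of them. Control 2 had 1.20 for Fst, the lowest of the controls and far under the level of absent transcripts, so this value is not interpreted.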

How the results depend on the processing

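Over 30 differences of the members (10 genes, 3 comparisons), 27 alternative settings gave 765 results. Of these 694 kept sign and side of the threshold, 41 lost and 6 gained a call, and 24 changed sign, none of them for a difference that had passed. Most of the 30 had not passed, and a changed threshold cannot change a sign, so the 694 is no measure of how firm the calls are. The calls of Bmp3 and Bmp4 were the ones lost. Against control they held in 11 and 7 of 25 alternatives, and against non-fibrotic bronchi in 23 and 18 of 25. The count of members called between fibrotic and control bronchi, 2, was 0 with controls 1 and 2 alone, with median centring, without the intensity trend, with only the groups compared, with a random block for label form (correlation 0.128) and with low signals raised to the level of absent transcripts, 4 at an adjusted p under 0.05, and 0 to 2 when each array was left out. Between fibrotic and non-fibrotic bronchi, 2 became 1 with controls 1 and 2 alone and with only the groups compared, 0 without the trend and with raised low signals, and 1 to 2 with each array left out. Between non-fibrotic and control bronchi, 0 became 1 with controls 3 to 6 alone (Bmp6) and 1 at 0.05 (Nog). Of the 58 other genes, the 14 called between fibrotic and control bronchi became 2 with controls 1 and 2 alone and 9 with raised low signals. The 3 between fibrotic and non-fibrotic bronchi became 7 with controls 3 to 6 alone, 5 with the methods' rule, 9 at 0.05 and 3 to 5 with each array left out (5 without non-fibrotic array 4). The 0 between non-fibrotic and control bronchi became 3 with controls 3 to 6 alone, 1 with the methods' rule, 1 with raised low signals, 4 at 0.05 and 0 to 1 with each array left out. Sostdc1 and Id4 kept both calls under every alternative run, and Bmp5 lost its fall against control with controls 1 and 2 alone, that against non-fibrotic bronchi with only the groups compared, and both with its second probe set. The causes were not tested.

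Signs changed in differences that had not passed. Against controls 1 and 2 alone, fibrotic bronchi had -1.04 for Bmp6 and 0.33 for Bambi, and non-fibrotic bronchi 0.057 for Bmp2, -0.39 for Bmp6 and 0.18 for Bambi. Bmp6 between fibrotic and control bronchi was also -0.046 with the mean of its probe sets and -0.66 with the second, and Bmpr2 between non-fibrotic and control bronchi was 0.32 with the second. Bmpr1a between non-fibrotic and control bronchi was 0.13 with array weights, 0.059 with quantile normalization and 0.11 with controls 3 to 6 alone. With raised low signals, non-fibrotic against control bronchi had 0.061 for Bmp2 and 0.019 for Bmp7. With each array left out, non-fibrotic against control differences ran from -0.41 to 0.53 for Bmp2, -0.42 to 0.43 for Bmp7 and -0.19 to 0.10 for Bmpr1a, and fibrotic against non-fibrotic differences from -0.67 to 0.029 for Bmpr2 and -0.028 to 0.43 for Bambi.

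No paired analysis was possible because the labels tie no array to a rat, although non-fibrotic tissue came from rats that also gave fibrotic tissue. Low signals limit Nog, Bmp7 and part of Grem1, since values under 6.52 cannot be told from those of absent transcripts.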
